A study of Mus musculus with 24 samples.

Results

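Microglia sorted from the brains of mice that had undergone bilateral carotid artery stenosis (BCAS) were compared with microglia of sham-operated mice, whatever the operated mice had been injected with. BCAS narrows both common carotid arteries with small coils and is a widely used model of chronic low blood flow to the brain. The 18 operated libraries, of 24 in all, were every library whose name begins with BCAS, and the remaining 6 were the Sham libraries. They fall into 3 groups of 6: BCAS+PBS (operated, phosphate-buffered saline), BCAS+ND-Exos and BCAS+WD-Exos (operated, then ND-Exos or WD-Exos, exosomes given through the tail vein at 100 µg every 3 days for 28 days). The Sham+PBS group, also of 6 libraries, was sham-operated and received saline. All groups are labelled wild type, brain, microglia, 28 days, and the age of the mice is not stated. The series title speaks of foam cell-derived exosomes, foam cells being macrophages filled with lipid. The labels do not say whether the 6 libraries of a group came from separate mice, so p-values measure the spread between these libraries, which may in part be technical. No Sham group received exosomes.

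Each operated group had equal weight in the joint contrast, and a group's own contrast is given beside it. Levels are CPM, counts as parts of a common library total, after scaling between libraries. They are not divided by transcript length, so they compare 1 gene between libraries and not genes with each other. Differences are log2 fold changes, operated over Sham, with their standard error (SE). Adjusted p-values are from the quasi-likelihood test of edgeR with Benjamini-Hochberg adjustment over all 10219 genes tested, with a threshold of 0.05. The libraries summed to between 24277709 and 28892412 counts, with 8515 to 10794 genes detected in each. Neither measure differed between operated and Sham libraries (exact two-sided permutation test, adjusted p = 0.707 for both). The sorted cells carried the defining microglial transcripts: P2ry12, the purinergic receptor that marks homeostatic microglia, averaged 5375 ± 1411 CPM in operated libraries (SD, n = 18) and 3757 ± 512 CPM in Sham libraries (SD, n = 6). Cx3cr1, the fractalkine receptor, averaged 4742 ± 927 CPM in operated and 3663 ± 319 CPM in Sham libraries.

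Sham replicates 1 to 5 each had the highest or second highest summed level of the 24 libraries in at least 1 marker list of other brain cells. Over 12 listed markers of border macrophages, the macrophages of vessels and meninges, the summed level was 73.8 to 897 CPM in operated libraries and 306 to 1632 CPM in Sham libraries, with the highest values in Sham replicates 1 and 3. The 13 endothelial markers summed to 36.2 to 162 CPM in operated libraries and to 66.1 to 1368 CPM in Sham libraries, highest in Sham replicates 3 and 5, at 1368 and 506 CPM. The mural cell markers, 10 of 11 with values, summed to 0 to 26.1 CPM in operated libraries and 0 to 1027 CPM in Sham libraries, highest in Sham replicates 2 and 4, at 1027 and 203 CPM. The neuronal markers, 12 of 13 with values, summed to at most 23.1 CPM in operated libraries and to 351 CPM in Sham replicate 1, the highest Sham library. The 13 oligodendrocyte markers summed to 1581 to 10292 CPM in operated and 3549 to 13742 CPM in Sham libraries, highest in Sham replicate 4. Astrocyte, oligodendrocyte precursor and ependymal markers were instead highest in a BCAS+ND-Exos library, at 522, 146 and 12.35 CPM. Their highest Sham sums were 343, 104 and 9.71 CPM. The part of these cells in the results below was not tested. Each count of genes called was also taken without Sham replicates 1, 2 and 3, a choice made after seeing the data that leaves replicates 4 and 5 in. The count of genes in which operated and Sham libraries did not overlap was not taken in that setting.

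Ribosomes are built from ribosomal RNA and a large set of proteins, each from its own gene. Those genes are expressed in step, and their mRNAs begin with a run of pyrimidines, the terminal oligopyrimidine tract, through which their translation is adjusted to growth signals such as mTOR. Microglia scan the brain, clear debris and respond to injury, and change their metabolism and protein synthesis as they do so.

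In microglia of operated mice, 57 genes differed from Sham, and 40 of them encoded cytosolic ribosomal proteins, all lower. The genes called were 0.558% of those tested. The remainder were 6 genes that rose (0.0587% of genes tested) and 11 others among the 51 that fell (0.499%). In each of the 57 genes the 3 operated groups agreed in direction. Across all genes tested, the 3 groups had 1 sign in 52.4% (26.2% higher and 26.2% lower). The 3 contrasts share the Sham libraries, so agreement between them is not independent. The 57 genes were also picked by the mean of these 3 contrasts, which by itself makes 1 sign likely. The share over all genes is therefore not a like measure. At an unadjusted p under 0.05 there were 687 genes (6.72%).

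A pyrimidine run was looked for in the promoter sequences of RefSeq (GRCm38.p6), and 4 ribosomal protein genes called lower are shown from 30 bases before to 30 bases from the annotated start of transcription. They are the genes called lower that hold the marked run within this window, and were picked for holding it. Capitals mark CTCTTTC, the run searched for, on the transcribed strand.
Rpl28 (chr7:4792935-4792994, plus strand): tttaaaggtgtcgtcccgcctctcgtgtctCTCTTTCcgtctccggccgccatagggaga
Rpl26 (chr11:68901536-68901595, plus strand): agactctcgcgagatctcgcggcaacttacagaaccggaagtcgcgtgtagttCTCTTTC
Rpl35a (chr16:33056452-33056511, plus strand): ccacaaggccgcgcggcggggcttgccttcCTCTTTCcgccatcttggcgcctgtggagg
Fau (chr19:6057917-6057976, plus strand): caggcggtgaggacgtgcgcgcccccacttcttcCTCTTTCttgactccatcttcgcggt

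CTCTTTC itself begins at the annotated start in Rpl28 and Rpl35a, and 4 and 23 bases after it in Fau and Rpl26. In Rpl28, Rpl35a and Fau further pyrimidines stand directly before CTCTTTC, and this longer stretch spans the annotated start. In Rpl26 it does not. Within windows of 250 bases before to 50 after the start, CTCTTTC stood on the transcribed strand of 7 of the 26 called ribosomal protein genes that had a promoter entry (26.9%) and of 14 of the 59 ribosomal protein genes tested that had one (23.7%). Over all genes tested the share was 4.81% (401 of 8343). On either strand the shares were 34.6% of called ribosomal protein genes, 32.2% of those tested and 8.64% of all genes tested. None of the 5 higher genes with an entry held it on the transcribed strand. These are matches of letters, not measured sites.

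All 80 ribosomal protein genes listed were tested, and all 80 had a lower level in operated than in Sham microglia in the joint contrast and in each of the 3 groups. Of all genes tested, 52.7% had a joint fold change below 0 and 47.3% above 0. Their median log2 fold change was −0.55, against −0.036 for all genes tested. By group the median was −0.49 in BCAS+PBS, −0.59 in BCAS+ND-Exos and −0.58 in BCAS+WD-Exos. The joint fold changes of the 80 genes ran between −0.87 (Rpl28) and −0.15 (Rps25), and those of the 40 called genes between −0.87 and −0.43. Among the 40 that did not pass, Rpl4 averaged 1742 ± 232 CPM in operated and 2109 ± 242 CPM in Sham libraries, and Rps25 averaged 686 ± 123 CPM in operated and 760 ± 61.5 CPM in Sham libraries. For no ribosomal protein gene called did the 3 operated groups differ from each other (smallest adjusted p 0.99999, edgeR).

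Summed over the 80 genes, ribosomal protein transcripts made up 41171 to 60288 CPM in BCAS+PBS libraries, 35946 to 48507 CPM in BCAS+ND-Exos, 33593 to 51311 CPM in BCAS+WD-Exos and 56249 to 68517 CPM in Sham libraries. The sum averaged 44520 ± 6043 CPM over the operated libraries and 63030 ± 5613 CPM over the Sham libraries. BCAS+PBS replicate 2, at 60288 CPM, was the operated library that reached into the Sham range, and each of the other 17 lay below the lowest Sham library.

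**Figure D1:**
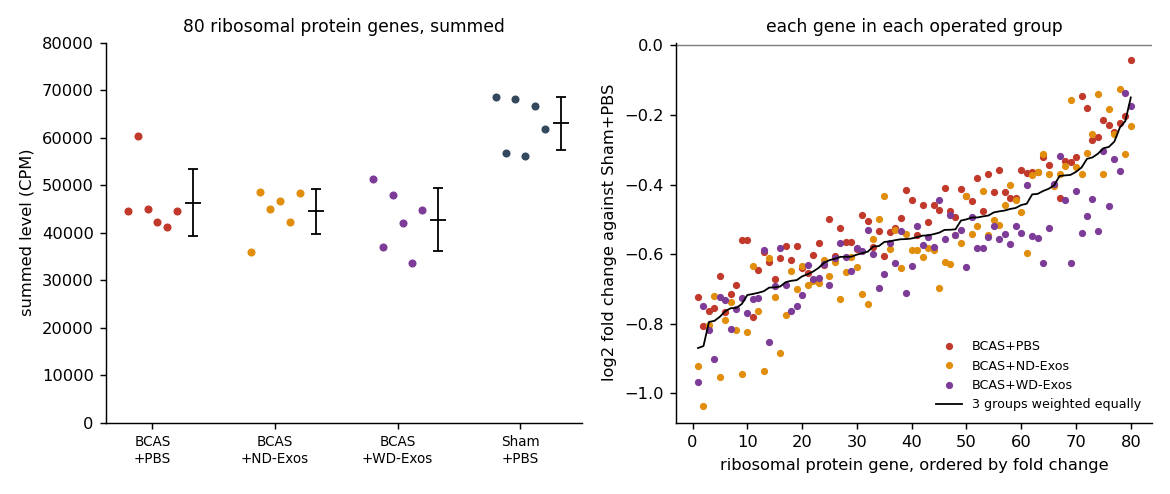
Left, summed level in CPM of 80 cytosolic ribosomal protein genes in each library (points) with the group mean and SD (bars), the 3 operated groups and then Sham+PBS. Right, log2 fold change of each of the 80 genes in each operated group against Sham+PBS (coloured points) and with the 3 groups weighted equally (line), ordered by the line. Of the operated libraries, BCAS+PBS replicate 2 lies in the Sham range, and all points on the right lie below 0.

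Stalk proteins of the large subunit recruit the translation factors, and of their genes Rplp1 and Rplp2 were among the ribosomal protein genes that fell most. The stalk gene Rplp0 fell by 0.36 on the log2 scale and did not pass (adjusted p = 0.0507, edgeR). Rplp1 had a lowest, median and highest level of 805, 895 and 1366 CPM in BCAS+PBS libraries, 740, 909 and 975 CPM in BCAS+ND-Exos, 635, 903 and 1167 CPM in BCAS+WD-Exos and 1314, 1569 and 1697 CPM in Sham libraries. Of the 18 operated libraries, 17 lay below every Sham library, the exception being BCAS+PBS replicate 2. Rplp1 fell by 0.75 on the log2 scale (SE 0.12, adjusted p = 0.00572, edgeR), with group values of −0.69, −0.82 and −0.76 in BCAS+PBS, BCAS+ND-Exos and BCAS+WD-Exos. Its partner Rplp2 ranged between 184 and 410 CPM in operated libraries and between 418 and 596 CPM in Sham libraries, with no overlap. It fell by 0.79 (SE 0.14, adjusted p = 0.00572, edgeR).

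Rplp2 was 1 of 7 genes in which every operated library lay below every Sham library (0.0685% of genes tested), and all 7 encode ribosomal proteins. No gene had every operated library above every Sham library. The count of 7 was 12 without Sham replicate 2, 14 without Sham replicate 4 and 37 without BCAS+PBS replicate 2. Leaving out a library makes it easier for a gene to meet this condition. The small-subunit gene Rps3, whose protein lies where mRNA enters the ribosome, ranged between 850 and 1402 CPM in operated and between 1440 and 1851 CPM in Sham libraries. Its log2 fold change was −0.48 (SE 0.09, adjusted p = 0.00627, edgeR). Rpl28, a large-subunit protein, had the lowest fold change of the 80, −0.87 (SE 0.16, adjusted p = 0.0112, edgeR), with 67.0 to 214 CPM in operated libraries and 248 to 354 CPM in Sham libraries. Also among the 7 were Rps3a1, Rps20 and Rpl8, whose operated means of 770, 300 and 391 CPM stood against Sham means of 1173, 486 and 623 CPM.

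Further small-subunit genes with small p-values included Rps28 (321 ± 68.9 CPM in operated and 555 ± 65.7 CPM in Sham libraries), Rps24 (418 ± 88.4 CPM in operated, 709 ± 101 CPM in Sham) and Rps4x (836 ± 174 CPM in operated, 1338 ± 103 CPM in Sham). Their log2 fold changes were −0.79, −0.76 and −0.68, and in each of them 17 of 18 operated libraries lay below every Sham library. Of the large subunit, Rpl27a, Rpl10, Rpl41 and Rpl30 had operated means of 423, 1174, 734 and 369 CPM against Sham means of 714, 1795, 1081 and 598 CPM, with log2 fold changes of −0.76, −0.61, −0.56 and −0.71. Ribosomal protein genes have many processed copies in the genome, and how reads shared with those copies were counted is not stated in the labels, so the level of any 1 of these genes is less certain than the sum.

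Ribosomal protein transcripts are short, with a median length of 689 bases against 2110 bases for all genes tested, and length moved with the result in the other genes. Among genes outside the list with at least 100 CPM, the median joint log2 fold change was −0.079 under 1000 bases, 0.018 at 1000 to 3000 bases and 0.067 at 3000 bases or more. Ribosomal protein genes under 1000 bases (66) and at 1000 bases or more (14) both had a median of −0.55. With length and GC content fitted per library, an alternative added after seeing the data, the median of the 80 genes was −0.48 and 23 of them were called. Without Sham replicates 1, 2 and 3 all 80 genes were still below 0, with a median of −0.51, and none was called, with 3 Sham libraries left. The count was also sensitive to single libraries, with 13 ribosomal protein genes called without Sham replicate 3, 14 without Sham replicate 5, 16 without Sham replicate 1, 24 without Sham replicate 6, 25 without BCAS+PBS replicate 4 and 63 without BCAS+PBS replicate 2.

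The rest of the translation and protein-folding machinery was described by fixed lists. Of 43 initiation and elongation factors, 29 were lower and 14 higher, with a median of −0.14, and 1 was called. That gene, Eef1a1, whose protein carries aminoacyl-tRNA to the ribosome, had 6304 to 9647 CPM in operated libraries and 9049 to 11486 CPM in Sham libraries, with 17 of 18 operated libraries below every Sham library. It fell by 0.36 (SE 0.08, adjusted p = 0.0314, edgeR), with −0.32, −0.40 and −0.35 in BCAS+PBS, BCAS+ND-Exos and BCAS+WD-Exos. Of 27 heat shock proteins and chaperones tested, 20 were lower and 7 higher, with a median of −0.19. The call was Hsp90ab1, the constitutive cytosolic HSP90, with 1110 ± 208 CPM in operated and 1587 ± 250 CPM in Sham libraries (log2 fold change −0.52, SE 0.12, adjusted p = 0.0457, edgeR). The groups overlapped for Hsp90ab1, and 12 of 18 operated libraries lay below every Sham library. With single libraries left out, Hsp90ab1 passed in 5 of 24 fits. The median of the chaperone list was 0.055 without Sham replicates 1, 2 and 3, so its direction rests on these libraries. Mitochondrial ribosomal proteins, which make the organelle's own ribosome, were lower in 50 of 78 with a median of −0.14 and no call at adjusted p (2 lower at an unadjusted p under 0.05, edgeR). By group their medians were −0.11 in BCAS+PBS, −0.011 in BCAS+ND-Exos and −0.28 in BCAS+WD-Exos.

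Nme2 and Prelid1 also fell, and were chosen for mention after their values were seen. Nme2, a nucleoside diphosphate kinase with a close paralogue in Nme1, ranged between 112 and 214 CPM in operated libraries and between 212 and 350 CPM in Sham libraries (log2 fold change −0.66, SE 0.14, adjusted p = 0.028, edgeR). Prelid1, which moves phosphatidic acid between the mitochondrial membranes, averaged 143 ± 42.8 CPM in operated and 250 ± 46.2 CPM in Sham libraries (log2 fold change −0.81, SE 0.18, adjusted p = 0.0314, edgeR). For both genes, 17 of 18 operated libraries lay below every Sham library, and the 3 operated groups agreed in direction.

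Transcripts of the respiratory chain were lower in most members without passing the test. For complex I, 29 of 37 genes were lower and 18 of them were lower in all 3 operated groups, with a median of −0.13. For complexes II to V, 33 of 40 genes tested were lower and 25 were lower in all 3 groups, with a median of −0.27. By group this median was −0.19 in BCAS+PBS, −0.21 in BCAS+ND-Exos and −0.29 in BCAS+WD-Exos. None was called (edgeR, 4 and 14 genes lower at an unadjusted p under 0.05 in these lists). Cox8a, a subunit of cytochrome c oxidase, had 322 ± 48.0 CPM in operated and 428 ± 75.8 CPM in Sham libraries (log2 fold change −0.41, adjusted p = 0.186, edgeR). Ndufb3, of complex I, had 62.8 ± 14.2 CPM in operated and 95.7 ± 19.8 CPM in Sham libraries (log2 fold change −0.62, adjusted p = 0.181, edgeR). Glycolysis had 13 of 21 genes lower with a median of −0.054, and its lowest p was that of Gapdh, at 1790 ± 374 CPM in operated and 2412 ± 193 CPM in Sham libraries (adjusted p = 0.13, edgeR). The tricarboxylic acid cycle had 12 of 19 genes higher, with a median of 0.11.

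The 6 genes that rose in operated microglia were 2 transcription factors (Foxn3 and Zfhx3), an RNA-binding protein (Qk), an inhibitory receptor (Lair1), a membrane and actin protein (Marcks) and a phosphatase (Ptp4a2). In RefSeq they lie on chromosomes 12 (Foxn3), 8 (Zfhx3), 17 (Qk), 7 (Lair1), 10 (Marcks) and 4 (Ptp4a2). All 6 were higher in each of the 3 operated groups. Their levels in every library are plotted, and most operated libraries lay above every Sham library.

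Foxn3, a forkhead factor that acts mainly as a repressor of transcription, had a lowest, median and highest level of 130, 169 and 207 CPM in BCAS+PBS libraries, 138, 200 and 230 CPM in BCAS+ND-Exos, 112, 164 and 234 CPM in BCAS+WD-Exos and 29.1, 71.7 and 123 CPM in Sham libraries. BCAS+WD-Exos replicate 2 was below Sham replicate 2, the highest Sham library, and 17 of 18 operated libraries were above it. Its mean was 2.35-fold higher in operated libraries, at 181 ± 36.6 CPM against 76.8 ± 31.5 CPM in Sham libraries (log2 fold change 1.23, SE 0.22, adjusted p = 0.00599, edgeR). By group the values were 1.15 in BCAS+PBS, 1.34 in BCAS+ND-Exos and 1.20 in BCAS+WD-Exos. Foxn3 passed the threshold with each single library left out, with log2 fold changes between 1.06 and 1.42. Without the BCAS+ND-Exos group its log2 fold change was 1.18 (adjusted p = 0.0527, edgeR).

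Qk encodes Quaking, an RNA-binding protein that controls splicing and mRNA stability. It had 785, 1161 and 1506 CPM as lowest, median and highest level in BCAS+PBS libraries, 974, 1236 and 1937 CPM in BCAS+ND-Exos, 639, 841 and 1438 CPM in BCAS+WD-Exos and 531, 606 and 791 CPM in Sham libraries. The BCAS+WD-Exos libraries overlapped most with Sham, and 14 of 18 operated libraries lay above every Sham library. Qk rose by 0.86 (SE 0.17, adjusted p = 0.0124, edgeR), with 0.92, 1.10 and 0.56 in BCAS+PBS, BCAS+ND-Exos and BCAS+WD-Exos. Among the 41 RNA-binding and splicing factors tested, Qk was the call, 23 were higher and the median was 0.086.

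Lair1, a receptor for collagen that carries inhibitory signals in leukocytes, had 672, 958 and 1039 CPM as lowest, median and highest level in BCAS+PBS libraries, 386, 672 and 981 CPM in BCAS+ND-Exos, 616, 799 and 1039 CPM in BCAS+WD-Exos and 372, 495 and 569 CPM in Sham libraries. Every BCAS+PBS and BCAS+WD-Exos library was above the highest Sham library, and 2 BCAS+ND-Exos libraries were not. Lair1 rose by 0.70 (SE 0.15, adjusted p = 0.028, edgeR), with 0.90, 0.49 and 0.72 in BCAS+PBS, BCAS+ND-Exos and BCAS+WD-Exos. Of 16 inhibitory receptors tested, 12 were higher and 10 of these were higher in all 3 groups, with a median of 0.19.

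Marcks, a substrate of protein kinase C that binds the membrane and actin, had 564, 816 and 1103 CPM as lowest, median and highest level in BCAS+PBS libraries, 558, 758 and 850 CPM in BCAS+ND-Exos, 480, 547 and 824 CPM in BCAS+WD-Exos and 381, 451 and 532 CPM in Sham libraries. It rose by 0.63 (SE 0.14, adjusted p = 0.0306, edgeR), and 15 of 18 operated libraries were above every Sham library. Zfhx3, a zinc finger and homeodomain factor, averaged 159 ± 43.0 CPM in BCAS+PBS, 183 ± 35.1 CPM in BCAS+ND-Exos, 106 ± 19.9 CPM in BCAS+WD-Exos and 84.9 ± 17.6 CPM in Sham libraries (joint log2 fold change 0.78, SE 0.18, adjusted p = 0.0346, edgeR). Ptp4a2, a small membrane-bound tyrosine phosphatase, averaged 792 ± 221 CPM in BCAS+PBS, 768 ± 169 CPM in BCAS+ND-Exos, 573 ± 133 CPM in BCAS+WD-Exos and 429 ± 98.4 CPM in Sham libraries (joint log2 fold change 0.71, SE 0.17, adjusted p = 0.0457, edgeR). For Marcks, Zfhx3 and Ptp4a2 the BCAS+WD-Exos value was the lowest of the 3, at 0.37, 0.32 and 0.42, against 0.84, 0.91 and 0.88 in BCAS+PBS and 0.69, 1.11 and 0.84 in BCAS+ND-Exos. The difference between the operated groups did not pass for any of them over all genes (unadjusted p = 0.0249, 0.0027 and 0.0539, adjusted p at least 0.465 for each gene called). Without Sham replicates 1, 2 and 3 all 6 genes were still higher in operated libraries and none passed. The shortest of the 6 had a median transcript length of 1668 bases, so all lie in the length classes where other genes had medians above 0. With length and GC content fitted per library, all 6 were higher and 5 were called. With single libraries left out, Zfhx3 passed in 12 of 24 fits and Ptp4a2 in 6 of 24, so the calls of these are the least firm of the 6. The count of 6 was 2 without Sham replicate 1, 4 or 5 and 1 without Sham replicate 3.

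**Figure D2:**
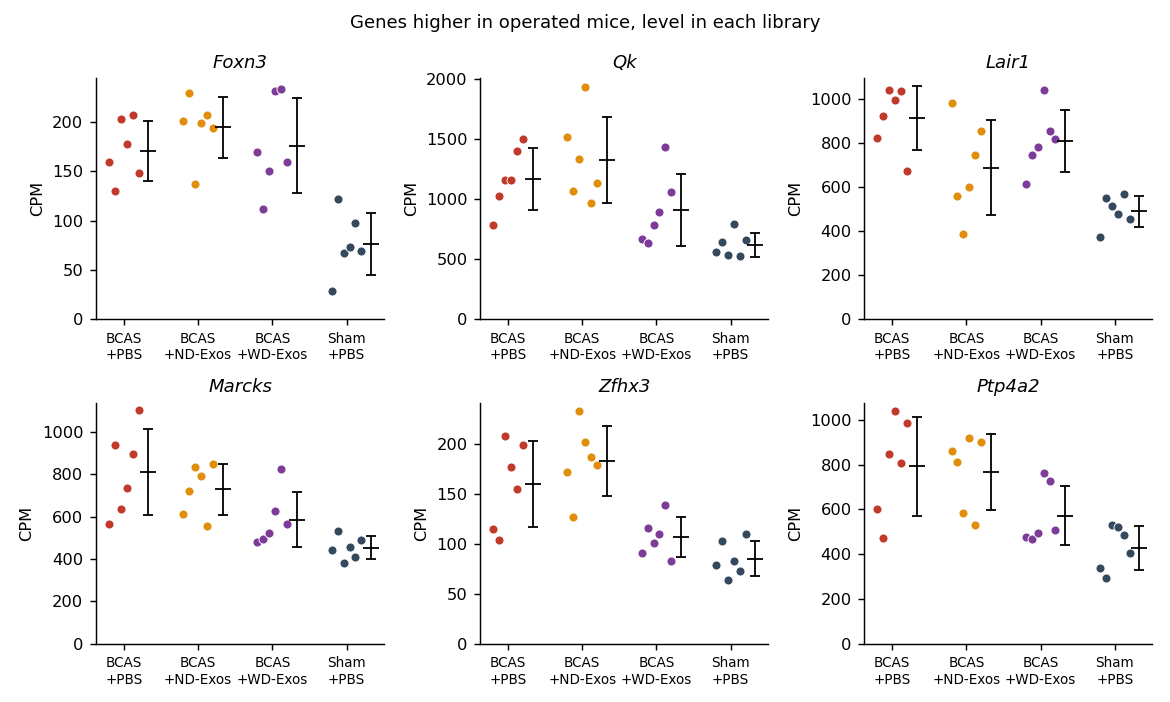
Level in CPM (axes from 0) of the 6 genes that rose, in each library (points), with group means and SD (bars), the 3 operated groups and then Sham+PBS. Foxn3 is above the highest Sham library in 17 of 18 operated libraries, and Zfhx3 and Ptp4a2 are closest to Sham in BCAS+WD-Exos.

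The remaining 7 genes that fell are sparse, with no count in some libraries of both sides, so no fold change is given for them, and they were chosen for mention after their values were seen. Vtn, the extracellular matrix protein vitronectin and in the brain a marker of pericytes, had 0.0373 CPM in BCAS+PBS replicate 1, 12.1 CPM in BCAS+ND-Exos replicate 5, 15.8 and 10.3 CPM in BCAS+WD-Exos replicates 1 and 3 and 0 in the other operated libraries. In Sham it had 619, 32.1 and 13.1 CPM in replicates 2, 4 and 1 and 0 in the rest. Vtn is itself 1 of the listed mural markers, and its adjusted p was up to 0.527 with single libraries left out (edgeR, past the threshold in 13 of 24 fits). Dock6, a guanine nucleotide exchange factor for small GTPases, had 11.7 and 7.77 CPM as its highest values in operated libraries, against 12.4 to 39.4 CPM in 4 Sham libraries and 0 in the other two. Klf11, a Krüppel-like transcription factor, reached 0.0746 CPM in BCAS+PBS, 0 in BCAS+ND-Exos, 14.1 CPM in BCAS+WD-Exos and 24.6 CPM in Sham libraries, with a count in 4 of the 6 BCAS+WD-Exos libraries. For Zbtb34, a zinc finger protein, the highest level was 0 CPM in BCAS+PBS, 0.29 CPM in BCAS+ND-Exos, 13.5 CPM in BCAS+WD-Exos and 25.1 CPM in Sham libraries. Pcp4l1, Cdc42ep1 and Ahnak, the last a giant scaffold protein below the membrane, had no count in any BCAS+PBS library and at most 12.8, 22.5 and 31.2 CPM in any operated library, against 45.6, 53.9 and 34.3 CPM as the highest Sham values. For these genes the sign of the 3 groups agreed, but the fitted values rest on a few libraries. Of the 24 fits with single libraries left out, Ahnak passed in 4, Zbtb34 in 5, Dock6 in 6 and Cdc42ep1 in 7. Klf11 and Pcp4l1 each passed in 16.

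**Figure D3:**
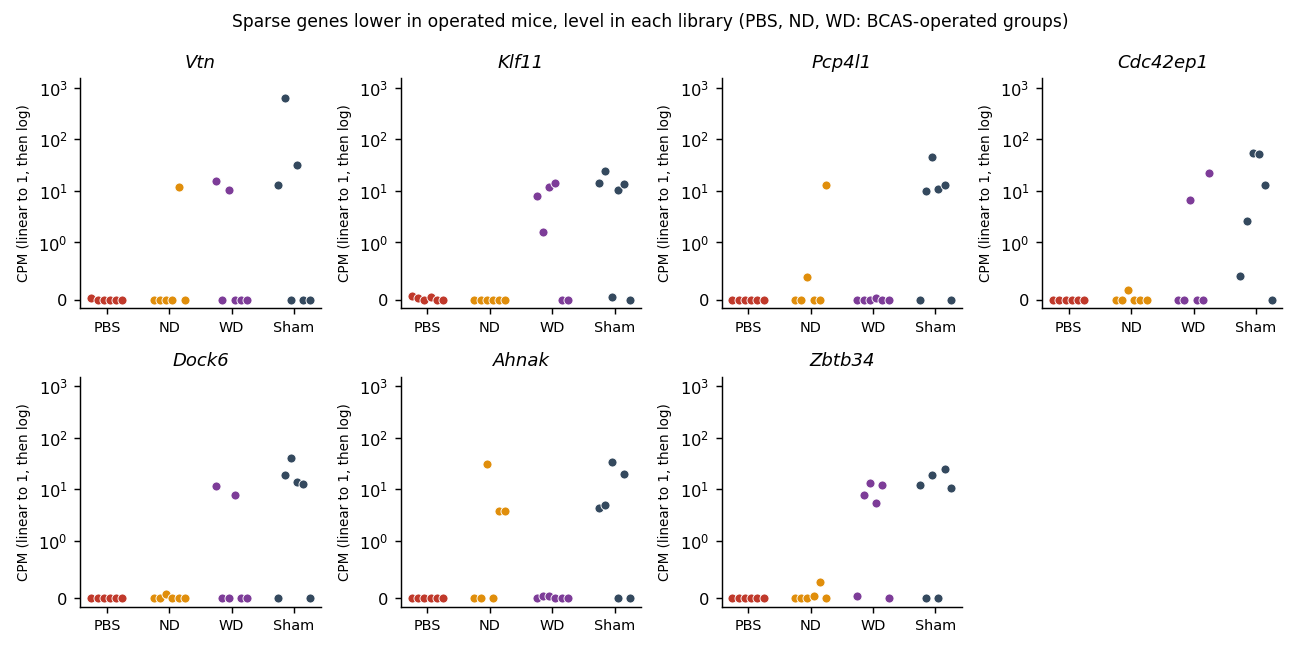
Level of the 7 sparse genes that fell, in each library (points), on an axis linear up to 1 CPM and logarithmic above it, with the 3 operated groups left of Sham. BCAS+PBS libraries are at or near 0 throughout, and the highest Vtn point, 619 CPM, is Sham replicate 2.

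Microglial identity genes were on balance higher without a call. Of 24 homeostatic genes, all tested, 21 were higher in the joint contrast and 16 of these were higher in all 3 groups, with a median of 0.20 and group medians of 0.23 in BCAS+PBS, 0.19 in BCAS+ND-Exos and 0.27 in BCAS+WD-Exos. None passed (edgeR, 7 higher and 0 lower at an unadjusted p under 0.05). Of all 10219 genes tested, 295 were higher at that level. P2ry13, an ADP receptor like P2ry12, had 1874 ± 597 CPM in operated and 1104 ± 285 CPM in Sham libraries (log2 fold change 0.76, adjusted p = 0.119, edgeR), with 0.71, 0.85 and 0.73 in BCAS+PBS, BCAS+ND-Exos and BCAS+WD-Exos. P2ry12 had a log2 fold change of 0.51 (adjusted p = 0.235, edgeR) and Cx3cr1 of 0.37 (adjusted p = 0.306, edgeR), each with 1 sign in the 3 groups. Tmem119, another microglial surface marker, averaged 1853 ± 618 CPM in operated and 1630 ± 384 CPM in Sham libraries, and its sign differed between groups, at 0.18, −0.16 and 0.46. The disease-associated list had 11 of 25 genes higher and 14 lower with a median of −0.11. Apoe, the lipid carrier that leads that state, had 4070 ± 1632 CPM in operated and 6006 ± 2408 CPM in Sham libraries (log2 fold change −0.56, adjusted p = 0.541, edgeR), lower in all 3 groups.

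Immediate early genes, which are transcribed within minutes of a stimulus, had the highest median of the pathway lists, 1.35, and none was called (edgeR, 10 higher and 0 lower at an unadjusted p under 0.05). Of 24 tested, 21 were higher, and these 21 were higher in all 3 groups, where 26.2% of all genes tested were. By group the median was 1.26 in BCAS+PBS, 0.88 in BCAS+ND-Exos and 2.11 in BCAS+WD-Exos. The spread between libraries was wide: the summed level ran between 1044 and 21570 CPM in BCAS+PBS, 4140 and 7650 CPM in BCAS+ND-Exos, 2223 and 26883 CPM in BCAS+WD-Exos and 813 and 3753 CPM in Sham libraries. Every BCAS+ND-Exos library was above every Sham library, and the highest single sums were in BCAS+PBS replicates 1 and 2 and BCAS+WD-Exos replicates 1, 2 and 3. Btg2, an antiproliferative early gene, averaged 1020 ± 597 CPM in operated and 415 ± 214 CPM in Sham libraries (log2 fold change 1.27, SE 0.44, adjusted p = 0.354, edgeR).

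Interferon response genes did not move in 1 direction in the operated groups. Of 33 tested, 27 were higher in the joint contrast with a median of 0.40, but 10 of these were higher in all 3 groups. The median was 0.81 in BCAS+PBS and 0.92 in BCAS+WD-Exos, and −0.31 in BCAS+ND-Exos. The joint median was 0.26 without Sham replicate 4, 0.63 without Sham replicate 2 and 1.04 without Sham replicates 1, 2 and 3. The summed level was 3090 to 5793 CPM in BCAS+PBS, 1729 to 2601 CPM in BCAS+ND-Exos, 2956 to 8093 CPM in BCAS+WD-Exos and 1662 to 3633 CPM in Sham libraries. Irf9, a subunit of the factor that drives these genes, averaged 132 CPM in BCAS+PBS, 77.3 CPM in BCAS+ND-Exos, 125 CPM in BCAS+WD-Exos and 68.1 CPM in Sham libraries (joint log2 fold change 0.67, adjusted p = 0.33, edgeR).

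The test of a difference between the 3 operated groups passed for 2 genes (0.0196% of those tested, where 513 genes or 5.02% had an unadjusted p under 0.05), neither of them called in the joint contrast. Lgals3bp, a secreted galectin-binding protein that interferons induce, had 590, 1297 and 1951 CPM as lowest, median and highest level in BCAS+PBS libraries, 289, 352 and 584 CPM in BCAS+ND-Exos, 923, 1509 and 3281 CPM in BCAS+WD-Exos and 332, 635 and 814 CPM in Sham libraries. Every BCAS+ND-Exos library was below every BCAS+PBS and BCAS+WD-Exos library (adjusted p = 0.00195 for the groups, edgeR). Its contrasts with Sham were 1.10 in BCAS+PBS, −0.67 in BCAS+ND-Exos and 1.505 in BCAS+WD-Exos. Gm20594, a predicted gene on chromosome 6, ran the other way, with means of 299.8 CPM in BCAS+PBS, 694 CPM in BCAS+ND-Exos, 299 CPM in BCAS+WD-Exos and 409 CPM in Sham libraries (adjusted p = 0.000161 for the groups, edgeR), and contrasts of −0.45, 0.76 and −0.45.

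Other inflammatory lists were mixed. Of 29 cytokine and NF-kB genes tested, 20 were higher and 13 of these in all 3 groups, with a median of 0.38, and none passed (edgeR, 7 higher and 0 lower at an unadjusted p under 0.05). The median was 0.19 without Sham replicate 1 and 0.78 without Sham replicates 1, 2 and 3. Il1a, an inflammatory cytokine, averaged 218 ± 150 CPM in operated and 97.4 ± 55.2 CPM in Sham libraries (log2 fold change 1.13, adjusted p = 0.385, edgeR). Il6 reached 9.04 CPM in operated libraries, 10 of which had a count, and had no count in the 6 Sham libraries. Lgals9 averaged 834 ± 218 CPM in operated and 550 ± 136 CPM in Sham libraries (adjusted p = 0.149, edgeR). MHC class I presentation had 16 of 21 genes higher with a median of 0.15, while class II presentation had 6 of 8 lower with a median of −0.50, and no gene of either passed (edgeR, 1 higher in class I and 0 in class II at an unadjusted p under 0.05). The class I median was 0.23 without Sham replicate 2. The class II median was −0.19 without Sham replicate 3 and 0.51 without Sham replicates 1, 2 and 3, so its direction rests on these libraries.

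The lysosome and cathepsin list was balanced, with 17 of 34 genes higher and a median of 0.003. Lamp1, a lysosomal membrane protein, averaged 605 ± 303 CPM in operated and 1160 ± 238 CPM in Sham libraries (log2 fold change −0.94, SE 0.28, adjusted p = 0.187, edgeR), with −0.98, −0.96 and −0.88 in BCAS+PBS, BCAS+ND-Exos and BCAS+WD-Exos. Rac1, a small GTPase of the NADPH oxidase and the cytoskeleton, averaged 317 ± 141 CPM in operated and 591 ± 93.8 CPM in Sham libraries (log2 fold change −0.91, adjusted p = 0.11, edgeR), also lower in all 3 groups. Arid1a, a subunit of the SWI/SNF chromatin remodeller, had the lowest adjusted p of the chromatin regulators, of which 24 of 35 were higher. It averaged 89.4 ± 19.1 CPM in operated and 46.8 ± 21.1 CPM in Sham libraries (log2 fold change 0.93, SE 0.25, adjusted p = 0.0963, edgeR). Of 13 TGF-beta signalling genes tested, 10 were higher and 9 of these in all 3 groups, with Skil, a repressor of the pathway, at 208 ± 75.3 CPM in operated and 125 ± 21.8 CPM in Sham libraries (adjusted p = 0.146, edgeR).

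**Figure D4:**
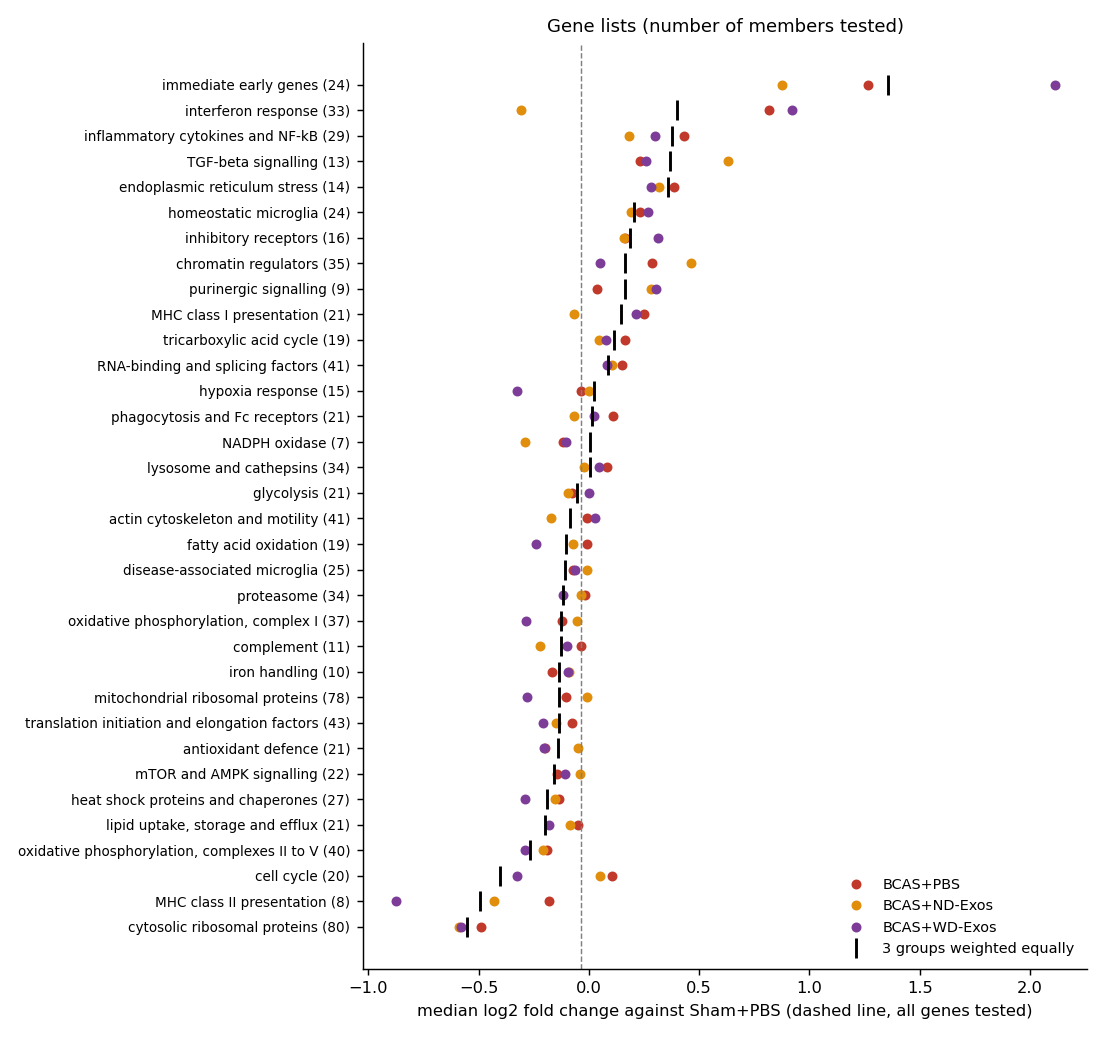
Median log2 fold change of each gene list with at least 5 members tested, markers of other cell types left out, in each operated group (coloured points) and with the 3 groups weighted equally (bars), and the median of all genes tested (dashed line). Of the lists plotted, cytosolic ribosomal proteins are lowest at −0.55 with the 3 groups close together, and immediate early genes highest at 1.35 with the groups far apart.

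Markers of vessels, their macrophages and oligodendrocytes were lower in the joint contrast, 1 of them (Vtn, above) past the threshold. All 9 border macrophage genes tested were lower in the joint contrast, 8 of them in all 3 groups, with a median of −1.48. That median was −0.62 without Sham replicate 1 and 0.49 without Sham replicates 1, 2 and 3. Pf4 averaged 30.8 ± 31.0 CPM in operated and 94.6 ± 96.0 CPM in Sham libraries (adjusted p = 0.424, edgeR), with the highest Sham value at 251 CPM. All 5 endothelial genes tested were lower in all 3 groups, and Egfl7 reached 23.3 CPM in operated and 314 CPM in Sham libraries. The endothelial median was −3.99, and −1.48 without Sham replicate 3. All 10 oligodendrocyte genes tested were lower in the joint contrast and 4 of them in all 3 groups, with a median of −0.69. Without Sham replicate 4 the oligodendrocyte median was 2.60, so its direction rests on that library. It was −2.24 without BCAS+WD-Exos replicate 6 and beyond 1.5 times its size without BCAS+ND-Exos replicate 3 as well. Markers of blood cells were scarce on both sides: the summed level was at most 32.0 CPM in operated and 21.6 CPM in Sham libraries for monocytes, and at most 33.1 CPM in operated and 19.7 CPM in Sham libraries for T and NK cells. The neutrophil list reached 676 CPM in operated and 328 CPM in Sham libraries, nearly all of it Csf3r, which microglia also express (402 ± 153 CPM in operated and 253 ± 51.2 CPM in Sham libraries, adjusted p = 0.342, edgeR). Fewer cells of a type and less RNA per cell cannot be told apart in such bulk libraries.

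Taken singly, the operated groups gave few calls. BCAS+PBS against Sham gave 0 genes (edgeR, smallest adjusted p 0.131, with 617 genes, 6.04%, at an unadjusted p under 0.05), and limma-voom gave 9 and DESeq2 205. BCAS+ND-Exos gave 11, of which 4 were higher (0.0391% of genes tested) and 7 lower (0.0685%), with 681 genes (6.66%) at an unadjusted p under 0.05. BCAS+WD-Exos gave 0 (edgeR, smallest adjusted p 0.0624, with 551 genes, 5.39%, at an unadjusted p under 0.05), with 63 by limma-voom and 172 by DESeq2. The count of 11 ran between 0 and 30 with single libraries left out. Of the 11 genes in BCAS+ND-Exos, 9 were also called in the joint contrast, and 6 encode ribosomal proteins, among them Rplp1, Rps3a1, Rps4x and Rpl30. The remaining pair were Macf1, a cytoskeletal crosslinker, at 192 ± 61.1 CPM in operated and 95.5 ± 38.0 CPM in Sham libraries (joint log2 fold change 0.97, adjusted p = 0.0646, edgeR), and Arsb, a lysosomal sulfatase, at 330 ± 133 CPM in operated and 516 ± 195 CPM in Sham libraries (joint log2 fold change −0.70, adjusted p = 0.116, edgeR). Both had 1 sign in the 3 groups. Of the 57 genes, picked by the mean of the 3 contrasts, 49 had an unadjusted p under 0.05 in each of the 3 groups (edgeR). Of all genes tested, 108 were higher (1.06%) and 86 lower (0.842%) at that level in each group.

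Without Sham replicates 1, 2 and 3 no gene passed the joint contrast (edgeR, smallest adjusted p 0.255, with 732 genes at an unadjusted p under 0.05). The total of 57 was 15 without Sham replicate 3, 17 without Sham replicate 5, 23 without Sham replicate 1, 34 without BCAS+PBS replicate 4 and 90 without BCAS+PBS replicate 2. DESeq2 called 273 genes, of which 127 were higher, and with genes of at least 100 CPM alone the test called 86, of which 25 were higher.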

How the data were processed

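Microglia had been sorted by FACS and their cDNA amplified by Smart-seq2, per the labels' protocols. The authors deposited 1 table of expected counts per Entrez gene identifier, in which 76.8% of genes with values were whole in every library. Of the aligner, counter, genome build and annotation, the labels name none: these are not given in the sources used. Of 22064 identifiers, 6186 were blank in every library and left out, and 22002 had a symbol in the RefSeq table (GRCm38.p6, used for names).

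After rounding, the counts were fitted in edgeR 4.0.16 (R 4.3.3): filterByExpr (minimum 10 counts), TMM factors (0.9365 to 1.175), 4 group means in 1 robust quasi-likelihood fit and Benjamini-Hochberg adjustment. The joint contrast was the mean of the 3 operated groups minus Sham. The members and gene lists were chosen with earlier results of these data known, so lists are described by counts and medians. Named genes were those called with an established symbol, 1 sign in the 3 groups and no empty library on the higher side, up to 15 in each direction by p, and from each list up to 3 called genes or, where none passed, the 2 with the smallest p. Some genes that this rule picked are not reported here. Lists are named in the text where their genes were described; the plot of list medians gives each list with at least 5 tested members, markers of other cells apart.

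The comparison of operated with Sham was also run on counts simulated with the libraries' own means, sizes and dispersions. There edgeR recovered 59.7% of 100 genes changed 2-fold and 10% of 100 changed 1.5-fold. The 3 simulations, over about 9919 genes, had a mean of 6.67 false calls. The changed genes were drawn only from the 1423 genes above 100 CPM, so recovery among genes of lower level was not measured. Alternatives were DESeq2 1.42.0, limma-voom 3.58.1, other scaling factors and filters, a replicate block, detected genes as a covariate, the operated libraries as 1 group, leaving out each library or each operated group, and, added after seeing the data, length and GC offsets and leaving out 3 Sham libraries. Because reads were amplified and carry no molecular identifiers, counts overstate the number of independent molecules. For genes above 100 CPM the median SE was 0.20, and for all genes 0.89.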

Additional observations from a re-analysis of the deposited data

Results flagged for a closer look

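In groups of 6 libraries, 24 of 216 sets of values held 1 library far from the other 5. Chance gives about 1 in 20 for independent sets, but these share libraries and genes that move together, so the rates cannot be compared. In most of the 24 the library was BCAS+PBS replicate 2, which was high in ribosomal protein genes. Its levels were 1366 CPM for Rplp1, 490 CPM for Rps28, 653 CPM for Rpl27a, 651 CPM for Rps24, 1698 CPM for Rpl10, 1085 CPM for Rpl41, 607 CPM for Rpl26, 797 CPM for Rpl21, 327 CPM for Rpl37, 1499 CPM for Rps23, 1730 CPM for Rpl13, 713 CPM for Rps16, 784 CPM for Rpl23a, 897 CPM for Rpl9, 928 CPM for Rpl7, 737 CPM for Rpl7a, 1030.4 CPM for Rpl37a and 370.2 CPM for Rpl31. Its ribosomal protein genes together made up 6.03% of counts, and its immediate early genes 2.16%. Whether these move together for 1 reason was not tested. The same group held a low Hsp90ab1 value of 694 CPM. In BCAS+ND-Exos, 1 library was low in Rps4x at 505 CPM, 1 was low in Nme2 at 124 CPM and 1 had 10603 genes with a count, above the other 5. In Sham, 1 library was high in Rpl30 at 771 CPM.

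The 3 operated groups differed in Lgals3bp (adjusted p = 0.00195, edgeR) and Gm20594 (adjusted p = 0.000161, edgeR). BCAS+ND-Exos stood apart in both, with Lgals3bp at 380 CPM against 1303 CPM in BCAS+PBS and 1719 CPM in BCAS+WD-Exos, and Gm20594 at 694 CPM against 299.8 and 299 CPM in those groups.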

How the results depend on the processing

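The count of 57 genes and its ribosomal part of 40 depended on the filter, the tool and the libraries, while all ribosomal protein genes tested stayed below 0 in every setting, with medians between −0.48 and −0.60. DESeq2 size factors gave 42 genes and upper-quartile factors 55; no scaling moved the median of all genes by 0.1. Without a low-count filter 983 genes passed (31 higher, 952 lower, 68 ribosomal, 967 of 1 sign in the 3 groups). With at least 100 CPM 86 passed (25 higher), with 5 in BCAS+PBS, 39 in BCAS+ND-Exos, 42 in BCAS+WD-Exos and 3 differing between groups. With at least 10 CPM the non-overlapping genes were 4. Limma-voom gave 119 (13 higher, 106 lower, 66 ribosomal), with 9, 44 and 63 in BCAS+PBS, BCAS+ND-Exos and BCAS+WD-Exos and 1 differing between groups. DESeq2 gave 273 (127 higher, 146 lower, 66 ribosomal, 239 of 1 sign), with 205, 225 and 172 by group and 23 differing. With detected genes as a covariate BCAS+WD-Exos gave 19. No low-count filter gave 4 in BCAS+ND-Exos and upper-quartile factors 7. Leaving out the BCAS+ND-Exos group left 14 (1 higher, 13 lower, 13 ribosomal) and the BCAS+WD-Exos group 21 (5 higher, 16 lower, 14 ribosomal). Length and GC offsets gave 33 (28 lower, 23 ribosomal, 7 in BCAS+ND-Exos). Without Sham replicates 1, 2 and 3 the count was 0 (edgeR, 732 at an unadjusted p under 0.05), with 3 Sham libraries left. The share of calls that were higher was 10.5%, but 46.5% with DESeq2, 29.1% at 100 CPM and 23.8% without BCAS+WD-Exos. The causes were not tested.

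With single libraries left out, the count ran between 15 and 90 (higher 1 to 9, lower 14 to 81, ribosomal 13 to 63, non-overlapping 7 to 37), with 0 to 32 in BCAS+PBS, 0 to 30 in BCAS+ND-Exos, 0 to 23 in BCAS+WD-Exos and 2 to 4 differing between groups.

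With single libraries left out, list medians ran between −0.13 and 0.0047 for glycolysis, 0.052 and 0.15 for the tricarboxylic acid cycle, 0.026 and 0.18 for RNA-binding and splicing factors, −0.18 and −0.087 for mitochondrial ribosomal proteins, −0.020 and 0.044 for lysosome and cathepsins, and −0.14 and −0.036 for disease-associated microglia.

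The replicate numbers are shared between groups, and the labels do not say whether they pair the libraries. Over 36 same-number pairs, correlations of deviations were −0.048 to 0.07. Whether libraries of the same number shared a batch was not tested, as the labels name no batch. With the replicate block 39 genes passed, 37 of them among the 57, and BCAS+ND-Exos gave 0 (edgeR, 683 at an unadjusted p under 0.05).

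Directions turned for genes that had not passed. Plac8 was −0.0061 with the covariate, −0.31 without BCAS+WD-Exos and between −1.99 and 1.77 with single libraries left out. Gm20594 was 0.077 with 1 operated group, 0.16 without BCAS+PBS, 0.16 without BCAS+WD-Exos, 0.084 with offsets and between −0.071 and 0.0061 with single libraries left out. Under voom Cd59a was 0.58 and Cxcr2 −0.12. With single libraries left out Cd59a ran between −3.88 and 1.82, Olig1 between −5.72 and 1.002, Mag between −1.50 and 0.19, Mbp between −1.03 and 0.10, Snap25 between −3.75 and 0.52 and the difference in library total between −550750 and 144770 counts, each highest without Sham replicate 4. Without Sham replicates 1, 2 and 3, Tubb3 was 2.21, Cbr2 0.25, Rragd 3.26 and Stmn1 0.049.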
